A study of Ciona robusta with 16 samples.

Results

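The comparison described here is that of whole embryos of the sea squirt *Ciona robusta* at the late tailbud II stage (latTII, 13.5 h post fertilization) with whole embryos at the middle tailbud II stage (midTII, 10.9 h). Its values come from 4 of the 16 RNA-seq libraries of a developmental series, 2 replicates at each stage, and from the 18388 genes of the KY21 gene set. The adjusted p-values also draw on the other libraries, because the spread was estimated over all 16. Every library was made from about 150 wild-type embryos whose chorion had been removed, with poly(A) selection and a strand-specific kit. The replicates came from different fertilizations, and which replicate number belongs to which fertilization is not given in the sources used here. The 4 libraries hold 28.2 and 33.4 M estimated counts at latTII and 26.1 and 30.8 M at midTII, within the 23.1 to 33.4 M of the whole series.

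Between these stages the tail of the embryo grows and the tissues of the swimming larva differentiate. The tail holds the notochord, the nerve cord and the muscle that will drive swimming, while the trunk forms a sensory vesicle with pigmented cells, adhesive organs at its front and an epidermis that lays down the tunic. Embryonic cell division slows towards hatching, and mRNAs that the egg supplied give way to products of the embryo's own genome. Because the libraries are of whole embryos, more cells of a type and more RNA per cell cannot be told apart in any of the values.

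Of 14623 genes tested, 1334 differed between latTII and midTII, which is 9.12% (edgeR's quasi-likelihood test, Benjamini-Hochberg adjusted p under 0.05). In every one of these genes the replicates of one stage lay apart from those of the other. Among all genes tested, both latTII libraries lay above both midTII libraries in 26.4% and below both in 26.1%. The separation is therefore common and is not separate evidence for the calls. The genes that differed were 669 higher at latTII (4.57% of all tested) and 665 lower (4.55%). The count was 1091 without latTII replicate 1, but 649 without latTII replicate 2, 640 without midTII replicate 1 and 571 without midTII replicate 2. Rises and falls were nearly equal in number but not in size. The median log2 change was 1.74 among the genes that rose and -0.96 among those that fell, and 283 genes rose at least 4-fold (log2 of 2) against 103 that fell as much. Among all genes tested the median log2 change was 0.00. With library totals in place of the TMM scaling, 585 genes were higher and 810 lower, so the balance of the directions moved with the scaling. It also moved in a fit of only the 4 libraries, with 740 genes higher and 403 lower.

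The genes that rose and those that fell also had different earlier levels, given here in TPM (Salmon's length-corrected measure of abundance), for which a value of at least 2 was taken as detected. In the unfertilized egg 56.1% of the genes that rose at latTII reached a mean TPM of 2, compared with 85.6% of the genes that fell and 64.9% of all genes tested. The median egg TPM was 4.14 for genes that rose, 76.8 for genes that fell and 16.5 for all. At the late neurula (latN), the stage before midTII, 65.9% of the genes that rose and 98.6% of those that fell were detected. In the hatched larva the median TPM was 51.2 for the genes that rose and 20.4 for those that fell. Levels also differed at midTII, a stage of the comparison, with a median TPM of 12.6 for rises, 48.1 for falls and 12.5 for all. How far the selection of called genes by their midTII level set the contrast at earlier stages was not tested. These shares and medians describe the called genes and were not tested.

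Detection was compared as well. By a TPM of at least 2 in both replicates, 11034 genes were detected at latTII and 10859 at midTII, and 10254 at both, which left 780 detected by this rule at latTII only and 605 at midTII only. In 379 genes both latTII libraries were at or above this limit and both midTII libraries below it, and 95 of these genes passed the test. The opposite pattern was seen in 199 genes, of which 37 passed. Pearson's r of log2(TPM+1), over 13832 genes of the same libraries, was 0.948 between the latTII replicates and 0.965 between the midTII replicates, against 0.904 to 0.920 between a latTII and a midTII library. The latTII replicates did not stand equally close to the larva: r was 0.917 and 0.936 for latTII replicate 1 and 0.895 and 0.899 for latTII replicate 2.

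**Figure D1:**
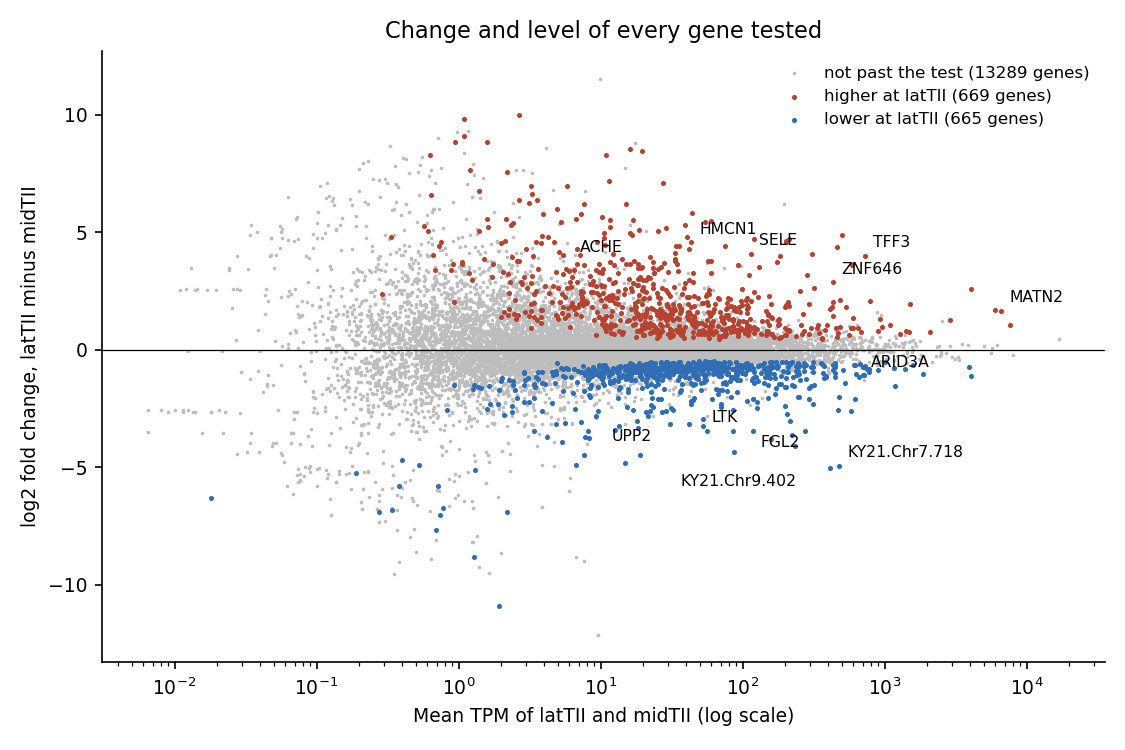
Each point is 1 of 14623 genes, placed by its mean TPM at latTII and midTII (log axis) and its log2 fold change, latTII minus midTII, where red points rose and blue points fell at an adjusted p under 0.05, grey points did not pass. The 669 red points reach farther from 0 than the 665 blue ones at TPM above 10, and the widest spread is among grey points of low TPM.

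Gene symbols below are those of the closest human match, or of the frog match where no human one was listed, and are held for 3833 genes, 50.1% of them on chromosomes 1, 10 and 11. A symbol marks sequence similarity only, and several KY21 genes can share 1 symbol. Of the genes tested, 3815 have a symbol, but only 136 of the 669 that rose and 251 of the 665 that fell, so most of the rises lie in genes that cannot be named here. Salmon, which estimated the counts, divides reads between similar copies, so values of paralogs are less certain than those of single genes.

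Among genes with a symbol and a TPM of at least 10, the largest rise was that of HMCN1 (KY21.Chr10.728), the match of hemicentin-1, a large matrix protein. Its TPM was 70.2 and 95.0 in the latTII replicates, against 4.48 and 2.61 in the midTII replicates. Both latTII libraries were far above both midTII libraries, and the log2 change was 4.58 ± 0.31 (SE; edgeR adjusted p = 2.2e-06). Matches of secreted or lectin-like proteins of epithelia rose about as far. SELE (KY21.Chr1.494), the match of E-selectin, a C-type lectin of vertebrate vessel walls, had 184 and 247 TPM at latTII, against 13.3 and 12.9 at midTII. TFF3 (KY21.Chr11.358), a match of the trefoil peptides that mammals secrete with mucus, had 1412 and 1301 TPM at latTII and 71.3 and 104 TPM at midTII. In both genes the replicates of a stage were close to each other beside the difference between stages, with log2 changes of 4.09 ± 0.18 for SELE and 4.01 ± 0.28 for TFF3 (SE; edgeR adjusted p = 3.6e-08 and 3.1e-06). TFF2 (KY21.Chr1.275), a second trefoil match, rose less, with 199 and 225 TPM at latTII and 43.5 and 48.9 TPM at midTII (log2 change 2.25 ± 0.21, SE; edgeR adjusted p = 3.3e-05). TFF2 had been higher at latN, with a mean TPM of 568, so its level at latTII was a partial return.

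The 15 largest rises also held matches of an F-box protein, a Hox gene, a Wnt pathway receptor and a zinc finger protein. FBXL7 (KY21.Chr1.1449), the match of an F-box protein that selects substrates of a ubiquitin ligase, had 88.9 and 39.5 TPM at latTII, against 3.63 and 2.60 TPM at midTII (log2 change 4.42 ± 0.54, SE; edgeR adjusted p = 0.00035). The latTII replicates differed from each other, yet both lay above both midTII replicates. HOXD10 (KY21.Chr1.2189), the match of a posterior Hox gene, had 40.8 and 66.4 TPM at latTII and 5.14 and 6.13 TPM at midTII (log2 change 3.30 ± 0.48, SE; edgeR adjusted p = 0.00093). KREMEN1 (KY21.Chr11.1077), whose vertebrate counterpart is a receptor of the Wnt inhibitor Dickkopf, had 32.3 and 46.3 TPM at latTII and 4.83 and 5.05 TPM at midTII. No replicate of either stage overlapped the other in these genes, and the log2 change of KREMEN1 was 3.04 ± 0.35 (SE; edgeR adjusted p = 0.00019). ZNF646 (KY21.Chr10.498), a zinc finger match, had higher levels, with 673 and 843 TPM at latTII and 126 and 85.0 TPM at midTII. Its edgeR adjusted p of 0.003 became 0.2 in limma on log2(TPM+0.1).

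The other large rises included enzymes, an actin regulator and an RNA-binding protein. ALPL (KY21.Chr1.1618), the match of an alkaline phosphatase, had 212 and 185 TPM at latTII and 20.8 and 24.8 TPM at midTII (log2 change 3.18 ± 0.31, SE; edgeR adjusted p = 5.9e-05). INF2 (KY21.Chr14.296), the match of a formin that assembles and severs actin filaments, had 73.1 and 123 TPM at latTII and 20.1 and 14.5 TPM at midTII. LARP6 (KY21.Chr11.260), whose mammalian counterpart binds collagen mRNAs, had 190 and 145 TPM at latTII and 30.3 and 27.8 TPM at midTII. Both rose, by 2.54 ± 0.39 for INF2 and 2.58 ± 0.24 for LARP6 on the log2 scale (SE; edgeR adjusted p = 0.0014 and 3.1e-05). LARP6 had been far higher at latN, with a mean TPM of 1087, so its level at latTII was a partial return. LYPD1 (KY21.Chr1.1326), the match of a Ly6-domain protein of neurons, rose by 2.29 ± 0.34, and LDHB (KY21.Chr14.454), a lactate dehydrogenase match, by 2.23 ± 0.38 on the log2 scale (SE; edgeR adjusted p = 0.0012 and 0.0027).

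The largest fall was that of FGL2 (KY21.Chr1.290), the match of a secreted fibrinogen-like protein, with 16.0 and 22.5 TPM at latTII, against 226 and 205 TPM at midTII (log2 change -3.44 ± 0.56, SE; edgeR adjusted p = 0.0026). LTK (KY21.Chr11.306), the match of a receptor tyrosine kinase, had 11.0 and 8.18 TPM at latTII and 76.4 and 114 TPM at midTII. UPP2 (KY21.Chr11.953), a uridine phosphorylase match, had 5.90 and 6.2 TPM at latTII and 46.7 and 65.1 TPM at midTII. The stages were well apart in both genes, with log2 changes of -3.25 ± 0.38 for LTK and -3.15 ± 0.34 for UPP2 (SE; edgeR adjusted p = 0.0002 and 0.00012). All of these mRNAs were near or below the detection limit in the egg, with at most 3.72 TPM, and had 257 TPM (FGL2), 154 TPM (LTK) and 54.2 TPM (UPP2) at latN.

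A further group of falls concerned mRNAs that the egg already held. RREB1 (KY21.Chr9.681), a zinc finger transcription factor match, had 33.7 and 26.1 TPM at latTII and 94.2 and 106 TPM at midTII (log2 change -1.69 ± 0.22, SE; edgeR adjusted p = 0.00043), against a mean of 272 TPM in the egg. CHORDC1 (KY21.Chr12.909), the match of a cochaperone of HSP90, had 15.9 and 15.7 TPM at latTII and 56.4 and 57.0 TPM at midTII (log2 change -1.79 ± 0.19, SE; edgeR adjusted p = 0.00012). The replicates of CHORDC1 hardly differed within a stage. FOPNL (KY21.Chr4.831), a centriolar satellite protein match, and GPD1 (KY21.UAContig26.3), a glycerol-3-phosphate dehydrogenase match, also fell, with log2 changes of -1.56 ± 0.41 and -2.17 ± 0.54 (SE; edgeR adjusted p = 0.032 and 0.027), but neither call held without latTII replicate 2 (adjusted p = 0.21 and 0.19) or without midTII replicate 2 (0.17 and 0.16), and that of FOPNL was also lost without midTII replicate 1 (0.075).

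Other named falls were those of GCLC (KY21.Chr1.276), the match of an enzyme of the first step of glutathione synthesis, of TDH (KY21.Chr1.126), a threonine dehydrogenase match, of FUT6 (KY21.Chr1.1862), a fucosyltransferase match, and of a gene whose closest match is EIF3A (KY21.Chr11.78). Their log2 changes ranged from -2.05 for GCLC to -1.64 for FUT6. The call of GCLC was lost without latTII replicate 1 (edgeR adjusted p = 0.12) or midTII replicate 1 (0.17), that of TDH on leaving out any single library other than midTII replicate 2 (0.07 to 0.13), that of FUT6 on leaving out any other than latTII replicate 1 (0.052 to 0.11), and that of EIF3A without latTII replicate 1 (0.055).

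**Figure D2:**
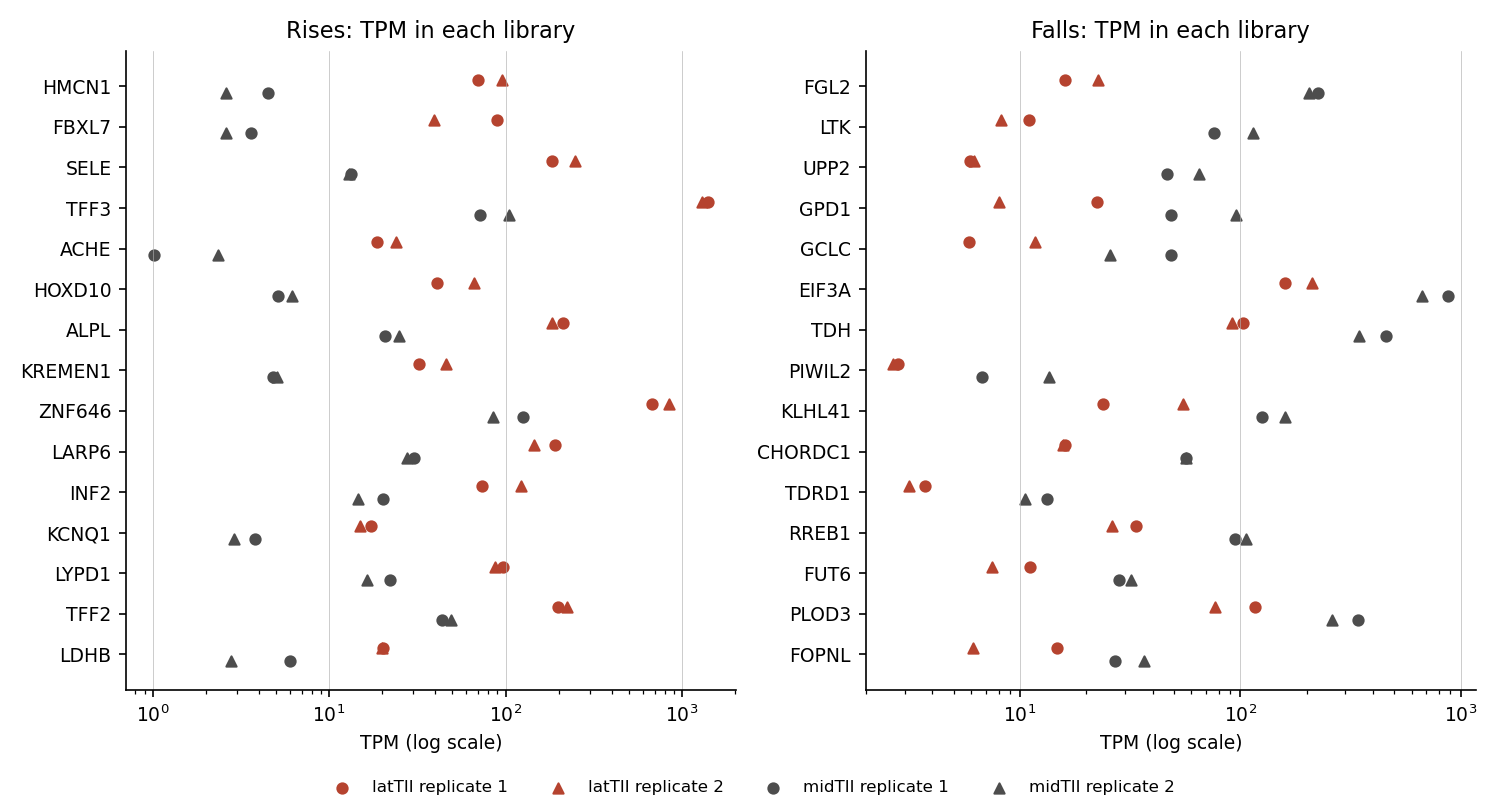
TPM (log axis) in each library for the 15 largest rises (left) and the 15 largest falls (right) among called genes with a symbol, ordered by log2 change. Red marks are latTII replicates and grey marks midTII replicates, circles replicate 1 and triangles replicate 2. In all 30 genes the red pair lies apart from the grey pair, which follows from the rule that chose them. The latTII replicates are farthest apart in FBXL7 among the rises and in GPD1 among the falls.

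Genes without a symbol gave still larger folds. KY21.Chr7.718 had 28.1 and 30.7 TPM at latTII, against 992 and 859 TPM at midTII, a log2 change of -4.93 ± 0.20 (SE; edgeR adjusted p = 2.9e-08). KY21.Chr9.402 had 26.6 and 20.9 TPM at latTII and 638 and 963 TPM at midTII, but its larger standard error (log2 change -5.02 ± 1.24; edgeR adjusted p = 0.026) left it short of the threshold without latTII replicate 1 (0.12), latTII replicate 2 (0.18) or midTII replicate 2 (0.073). KY21.Chr3.1356 fell to 0.286 and 0.530 TPM at latTII, against 11.5 and 14.5 TPM at midTII (log2 change -4.91 ± 0.42, SE; edgeR adjusted p = 2.2e-05). Among the rises, KY21.Chr13.186, KY21.Chr13.7 and KY21.Chr1.511 had no count in either midTII library. Against a floor of 3 counts over both midTII libraries they were at least 22.5-fold, 21.5-fold and 19.9-fold higher at latTII. They had 37.9 and 26.0, 39.7 and 38.9, and 13.0 and 30.7 TPM in the latTII replicates, and none of these 3 calls held when a single library was left out (edgeR adjusted p from 0.054 to 0.2). In all, 22 of the genes that rose had 3 or fewer counts over both midTII libraries, and 15 of those that fell had as few at latTII.

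Of the 5 most abundant mRNAs of the 4 libraries, 2 rose. MATN2 (KY21.Chr1.2187), the match of matrilin-2, a matrix protein that links filaments, had 9139 and 10783 TPM at latTII and 2765 and 3769 TPM at midTII (log2 change 1.66 ± 0.18, SE; edgeR adjusted p = 0.00013). KY21.Chr8.316 had 9428 and 10937 TPM at latTII and 4682 and 5478 TPM at midTII (log2 change 1.05 ± 0.14, SE; edgeR adjusted p = 0.00055). The other three did not pass the test (edgeR adjusted p = 0.24, 0.77 and 0.8), and their replicates overlapped or lay close together between stages. They were KY21.Chr14.722, with 17394 and 21316 TPM at latTII and 12043 and 16945 TPM at midTII, LOC108704161 (KY21.Chr14.174), with 5498 and 9069 TPM at latTII and 9873 and 7383 TPM at midTII, and KY21.Chr9.560, with 8025 and 4914 TPM at latTII and 7494 and 4211 TPM at midTII. The 100 most abundant KY21 genes of a library took 28.7 and 30.3% of the TPM of all KY21 genes at latTII, against 26.9 and 26.5% at midTII.

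Members of 22 gene lists were then counted, each list read beside the 4.57% of all genes that rose and the 4.55% that fell. Extracellular matrix genes changed in both directions. Of 38 tested, 9 rose and 4 fell, with a median log2 change of 0.00 and a summed TPM of 19300 and 21553 at latTII, against 11622 and 13094 at midTII. Besides HMCN1 and MATN2, those that rose were COL12A1 (KY21.Chr1.709), a fibril-associated collagen, EFEMP2 (KY21.Chr10.336) and LTBP4 (KY21.Chr1.2209), which serve elastic fibres in vertebrates, SVEP1 (KY21.Chr10.946), TECTA (KY21.Chr1.2025), FRAS1 (KY21.Chr12.179) and 1 of the COL4A6 matches (KY21.Chr1.1215), a basement membrane collagen. COL12A1 had 138 and 173 TPM at latTII and 33.5 and 43.2 TPM at midTII (log2 change 2.07 ± 0.19, SE; edgeR adjusted p = 2.9e-05). EFEMP2 had 420 and 508 TPM at latTII and 116 and 133 TPM at midTII (log2 change 1.95 ± 0.17, SE; edgeR adjusted p = 2.2e-05). In both genes the latTII values were more than 3 times the midTII values, with little spread between replicates.

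Of the 4 matrix genes that fell, 3 encode matches of enzymes that hydroxylate collagen chains in the endoplasmic reticulum. PLOD3 (KY21.Chr1.1251), a lysyl hydroxylase, had 117 and 76.9 TPM at latTII and 343 and 262 TPM at midTII (log2 change -1.60 ± 0.24, SE; edgeR adjusted p = 0.0012). P4HA2 (KY21.Chr1.2071), a subunit of prolyl 4-hydroxylase, had 86.8 and 65.6 TPM at latTII and 225 and 222 TPM at midTII (log2 change -1.50 ± 0.19, SE; edgeR adjusted p = 0.00034). P3H2 (KY21.Chr1.299), a prolyl 3-hydroxylase, had 46.6 and 39.3 TPM at latTII and 87.2 and 92.8 TPM at midTII. All were lower in both latTII libraries than in either midTII library, and so was the laminin chain match LAMA2 (KY21.Chr1.1257), with a log2 change of -1.05 ± 0.18 (SE; edgeR adjusted p = 0.0024). P4HA2, P3H2, LAMA2, SVEP1, TECTA, FRAS1 and COL4A6 were named after their values were seen, because they belong to these counts. With a single library left out the falls numbered 4 in each case, while the rises numbered 8 and 7 without latTII replicates 1 and 2 in turn, and 6 and 5 without midTII replicates 1 and 2.

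Of 40 neuronal genes tested, 8 rose and 0 fell, with a median log2 change of 0.17 and 12 of the 40 below 0. At an unadjusted p under 0.05 the numbers were 15 higher and 2 lower, and DESeq2 called 14 higher and 1 lower. ACHE (KY21.Chr11.880), the match of acetylcholinesterase, which ends transmission at cholinergic synapses, had 18.8 and 24.1 TPM at latTII and 1.01 and 2.35 TPM at midTII (log2 change 3.73 ± 0.62, SE; edgeR adjusted p = 0.0022). NCAM2 (KY21.Chr10.147), a neural cell adhesion match, had 64.3 and 93.4 TPM at latTII and 33.5 and 34.0 TPM at midTII (log2 change 1.27 ± 0.16, SE; edgeR adjusted p = 0.00032). Its mean TPM had been 64.4 in the egg and 18.7 at latN. The mRNA of SNAP25 (KY21.Chr11.752), the match of a synaptic vesicle fusion protein, rose by less. It had 115 and 113 TPM at latTII and 72.1 and 72.3 TPM at midTII (log2 change 0.71 ± 0.15, SE; edgeR adjusted p = 0.011). Its call was lost without midTII replicate 1 or midTII replicate 2, with log2 changes of 0.75 and 0.66. The mean TPM of SNAP25 had been 111 at latN, so its level at latTII was a return. KCNQ1 (KY21.Chr2.1366), a voltage-gated potassium channel match, and CPE (KY21.Chr12.180), which processes neuropeptides, rose by 2.31 ± 0.57 and 1.47 ± 0.39 (SE; edgeR adjusted p = 0.022 and 0.031). KCNQ1 lost its call when any 1 of the 4 libraries was left out (0.067 to 0.17), and CPE on leaving out any other than latTII replicate 1 (0.13 to 0.21). STX1A, CLSTN2 and ASIC1 were the other members that rose. The neuronal markers STMN2 and CELF2 did not pass (log2 change -0.16 and 0.33, edgeR adjusted p = 0.89 and 0.31). Their mean TPM was 50.6 and 85.6 in the egg, against 8.60 and 35.4 at latTII. Without latTII replicates 1 and 2 in turn 6 and 5 members passed, and without midTII replicates 1 and 2 in turn 4 and 3.

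Muscle genes were abundant at both stages, and 1 of 24 tested rose and 3 fell. The median log2 change was 0.23, with 18 of the 24 above 0. The list summed to 11627 and 12242 TPM at latTII, against 10188 and 11007 TPM at midTII. MYH7 (KY21.Chr11.773), a myosin heavy chain match, had 1168 and 990 TPM at latTII and 1070 and 946 TPM at midTII, and TNNI1 (KY21.Chr11.473), a troponin, had 1985 and 1981 TPM at latTII and 1285 and 1894 TPM at midTII. Neither passed the test (edgeR adjusted p = 0.76 and 0.51), as was the case for ACTC1 (0.75) and CKM (0.61). The rise was that of MYBPC3 (KY21.Chr1.326), a thick-filament protein, with 345 and 514 TPM at latTII and 244 and 224 TPM at midTII (edgeR adjusted p = 0.02), a call lost without latTII replicate 2 (0.19), midTII replicate 1 (0.072) or midTII replicate 2 (0.16). The 3 that fell were KLHL41 (KY21.Chr1.864), which stabilizes sarcomere proteins, the unconventional myosin MYO18B and the calponin CNN3. The egg already held MYO18B and CNN3, with a mean TPM of 259 and 134, against 0.32 for KLHL41. At midTII the means were 41.9 for MYO18B and 73.9 for CNN3. In a fit of only the latTII and midTII libraries the call of CNN3 was lost (edgeR adjusted p = 0.14). That of MYO18B was lost there when a replicate block was added (0.052). Neither call held in every fit with a single library left out. The log2 change of CNN3 was -0.69, but -0.50 without latTII replicate 2 and -0.48 without midTII replicate 1. For MYO18B it was -0.93, but -0.87 without latTII replicate 2 and -0.76 without midTII replicate 2. KLHL41 had 23.8 and 54.8 TPM at latTII and 126 and 159 TPM at midTII (edgeR adjusted p = 0.036), a call lost without latTII replicate 1 (0.18), midTII replicate 1 (0.12) or midTII replicate 2 (0.2). Without single libraries 0 or 1 muscle genes rose and 1 or 2 fell.

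Genes of cell division were lower at latTII. Of 52 mitosis genes tested, 10 fell (19.2%) and 0 rose, with a median log2 change of -0.32, and 43 of the 52 had a log2 change below 0. There was 1 rise at an unadjusted p under 0.05, and DESeq2 called 1 higher and 14 lower. UBE2C (KY21.Chr3.1234), which feeds ubiquitin to the anaphase-promoting complex, had 144 and 145 TPM at latTII and 372 and 353 TPM at midTII (log2 change -1.28 ± 0.22, SE; edgeR adjusted p = 0.0025). BUB1B (KY21.Chr11.839), of the spindle checkpoint, had 69.7 and 65.9 TPM at latTII and 131 and 147 TPM at midTII (log2 change -0.98 ± 0.17, SE; edgeR adjusted p = 0.0028). The kinetochore matches CENPH and CENPC fell too, by 1.19 and 0.89 on the log2 scale. In the egg their mean TPM had been 76.1 and 88.2. The call of CENPH was lost without latTII replicate 1 (0.054) or midTII replicate 2 (0.055), that of CENPC without latTII replicate 2 (0.052). The 10 falls became 7 and 3 without latTII replicates 1 and 2 in turn, and 6 and 4 without midTII replicates 1 and 2.

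Of 39 DNA replication genes, 7 fell (17.9%) and 0 rose, with a median log2 change of -0.19. None was higher at an unadjusted p under 0.05 or in DESeq2, which called 9 lower. CDT1 (KY21.Chr11.278), which loads the replicative helicase, had 48.4 and 51.5 TPM at latTII and 103 and 126 TPM at midTII (log2 change -1.15 ± 0.14, SE; edgeR adjusted p = 0.00032). Its inhibitor geminin, GMNN (KY21.Chr1.1139), had 32.2 and 23.5 TPM at latTII and 76.9 and 54.2 TPM at midTII (log2 change -1.19 ± 0.25, SE; edgeR adjusted p = 0.0091). A factor of licensing and its inhibitor were lower to a like extent, although the call of GMNN was lost without latTII replicate 2 (0.094) or midTII replicate 1 (0.098). MCM10 and TICRR, which act at origin firing, fell by 1.08 and 0.85 on the log2 scale, the call of TICRR being lost without latTII replicate 2 (0.091) or midTII replicate 1 (0.1). Without latTII replicates 1 and 2 in turn 6 and 4 members fell, and without midTII replicates 1 and 2 in turn 3 and 5.

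Germline genes of the piRNA pathway, which silences transposons, were also lower, in 4 of 9 tested (44.4%), with none higher at an unadjusted p under 0.05 or in DESeq2 and a median log2 change of -0.60. PIWIL2 (KY21.Chr11.1067), a Piwi protein match, had 2.78 and 2.66 TPM at latTII and 6.73 and 13.6 TPM at midTII, against a mean of 122 TPM in the egg. PIWIL1 (KY21.Chr11.321) had 12.0 and 16.7 TPM at latTII and 32.6 and 28.9 TPM at midTII, against a mean of 164 TPM in the egg. The log2 changes of PIWIL2 and PIWIL1 were -1.84 ± 0.29 and -1.05 ± 0.18 (SE; edgeR adjusted p = 0.0015 and 0.0028). Of the matches of TDRD1, a Tudor scaffold of that pathway, KY21.Chr11.1157 fell as well (log2 change -1.76 ± 0.24, SE; edgeR adjusted p = 0.00059), while KY21.Chr1.1002 was at 1.55 and 1.43 TPM at latTII and 3.32 and 1.67 TPM at midTII and did not pass (0.39). MAEL (KY21.Chr12.221), the fourth, had the smallest fall (log2 change -0.46; edgeR adjusted p = 0.038) and lost its call on leaving out any single library (0.069 to 0.21). DDX4, the match of the germ plasm helicase Vasa, had 90.2 and 74.2 TPM at latTII and 122 and 136 TPM at midTII, just short of the threshold (edgeR adjusted p = 0.053).

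Of 20 glycolysis and glycogen genes tested, 5 rose and 5 fell, with a median log2 change of -0.07. Those that rose were the glycolytic enzymes TPI1, ENO1 and PKM, LDHB, which interconverts pyruvate and lactate, and UGP2, which makes UDP-glucose. ENO1 (KY21.Chr8.849), the enolase match, had 20.3 and 22.5 TPM at latTII and 9.60 and 9.06 TPM at midTII (log2 change 1.24 ± 0.14, SE; edgeR adjusted p = 0.00019). In the egg the mean TPM had been 190 for ENO1, 130 for TPI1 and 22.2 for LDHB, against 21.4, 24.5 and 20.1 at latTII. TPI1 rose by 1.34 on the log2 scale, but by 1.13 without midTII replicate 1, where its call was lost. UGP2 (KY21.Chr11.602) was the most abundant, with 1012 and 1210 TPM at latTII and 630 and 709 TPM at midTII. Those that fell included the glycogen enzymes GBE1, PYGB and PGM1, and GAPDH. GAPDH (KY21.Chr11.276) had 103 and 69.6 TPM at latTII and 207 and 193 TPM at midTII. PKM, UGP2, GAPDH, GBE1, PYGB and PGM1 were named after their values were seen. The falls numbered 4 and 1 without latTII replicates 1 and 2 in turn and 2 and 3 without midTII replicates 1 and 2, and the rises 5 and 5, and 3 and 5.

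**Figure D3:**
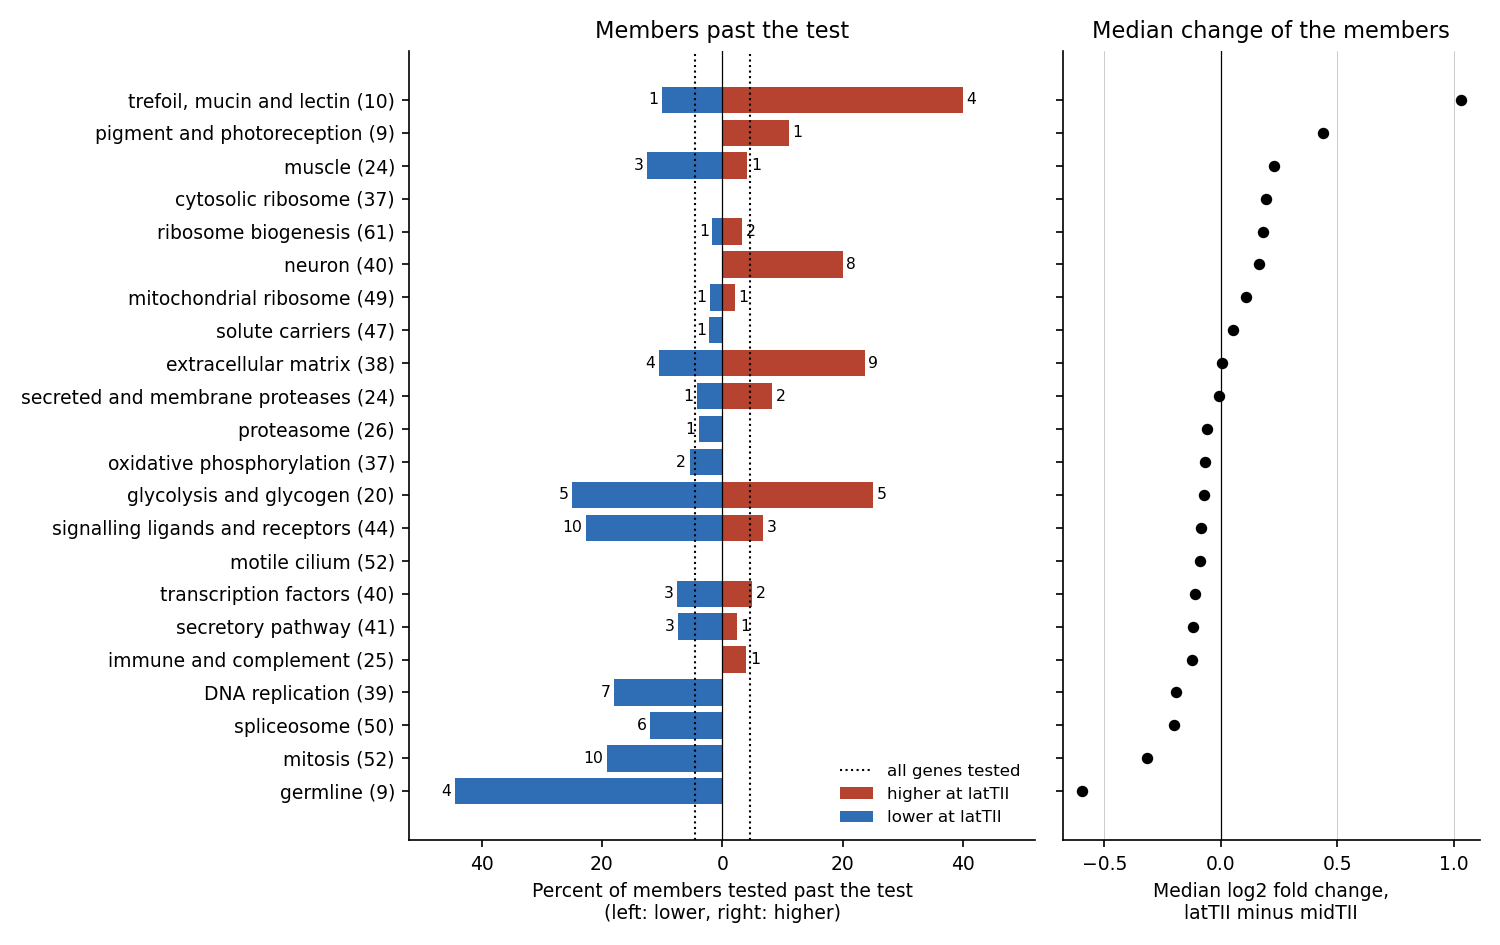
Left, percent of the tested members of 22 gene lists that were higher (red, to the right) or lower (blue, to the left) at latTII than at midTII, with the number of genes at each bar, the number tested in brackets and the shares of all genes tested as dotted lines. Right, the median log2 fold change, latTII minus midTII. Trefoil, mucin and lectin genes have the highest median, 1.03, and germline genes the lowest, -0.60, and the cytosolic ribosome and motile cilium have no member past the test.

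Signalling genes mostly fell where they moved, 10 of 44 being lower (22.7%) and 3 higher, with a median log2 change of -0.08. Besides LTK they included LRP6, a Wnt co-receptor, NEO1, a netrin receptor, TGFB1, EPHA4, PLXNB2, HHAT and 2 semaphorin matches. Matches of NOTCH2 went both ways: KY21.Chr10.945 had 932 and 632 TPM at latTII and 184 and 195 TPM at midTII, and KY21.Chr11.10 had 34.7 and 23.2 TPM at latTII and 74.9 and 79.7 TPM at midTII. Neither NOTCH2 call (log2 change 2.10 ± 0.51 and -1.37 ± 0.37, SE; edgeR adjusted p = 0.023 and 0.034) held without either midTII replicate or without latTII replicate 2 (0.053 to 0.24), and that of KY21.Chr10.945 was also lost without latTII replicate 1 (0.1). The falls numbered 6 and 5 without latTII replicates 1 and 2 in turn, and 3 and 4 without midTII replicates 1 and 2. The delta match DLL1 was at 4.86 and 4.79 TPM at latTII and 4.48 and 2.92 TPM at midTII and did not pass (edgeR adjusted p = 0.82).

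Of 40 transcription factors, 2 rose, HOXD10 and TP63, and 3 fell, ARID3A, VDR and CREB1. With any single library left out 1 fell, and the call of VDR (edgeR adjusted p = 0.048) was lost in each of these fits (0.084 to 0.23) and with RLE factors (0.06). ARID3A (KY21.Chr11.1304), the match of an AT-rich-domain factor, was the most abundant, with 398 and 479 TPM at latTII and 945 and 972 TPM at midTII (log2 change -1.08 ± 0.14, SE; edgeR adjusted p = 0.00051), after a mean of 22.2 TPM at latN. TP63 (KY21.Chr1.1577), an epidermal factor in vertebrates, had 11.0 and 18.0 TPM at latTII and 6.48 and 7.91 TPM at midTII, and its call (log2 change 1.06 ± 0.26, SE; edgeR adjusted p = 0.022) was lost without latTII replicate 2 (0.21) or either midTII replicate (0.15 and 0.088). TFAP2A, another epidermal factor, had 12.6 and 15.1 TPM at latTII and 21.7 and 24.7 TPM at midTII, which did not pass (0.27). E2F4 and the RNA-binding YBX1 did not pass either (0.54 and 0.76). The YBX1 latTII replicates, at 298 and 602 TPM, were as far apart as to span the midTII values of 530 and 590 TPM.

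In the trefoil, mucin and lectin list 4 of 10 rose and 1 fell, with a median log2 change of 1.03. SELE, TFF3 and TFF2 have been given, and MUC17 (KY21.Chr1.2129), a membrane mucin match, had 16.9 and 14.8 TPM at latTII and 6.78 and 8.65 TPM at midTII. The call of MUC17 (edgeR adjusted p = 0.0074) was lost in a fit of only the latTII and midTII libraries (0.051), also with a replicate block (0.065). It was lost as well without midTII replicate 1, where the log2 change was 0.97 in place of 1.09. The mean TPM of MUC17 had been 46.1 in the egg. MUC6 (KY21.Chr11.660), a gel-forming mucin match, fell, with 121 and 181 TPM at latTII and 298 and 371 TPM at midTII (log2 change -1.09 ± 0.23, SE; edgeR adjusted p = 0.0095), a call lost without latTII replicate 1 (0.071) or midTII replicate 2 (0.074). TFF1 (KY21.Chr1.2012) stayed abundant, at 5055 and 5339 TPM at latTII and 5210 and 4359 TPM at midTII, and did not pass (0.58). Among proteases, MEP1B and ACE rose and TMPRSS9 fell, of 24 tested, but with a single library left out 0 or 1 rose and 1 or 2 fell. Of 9 pigment and photoreception genes 1 rose, the arrestin match ARRB1, with a median log2 change of 0.44 over the list. The numbers were 5 higher and 0 lower at an unadjusted p under 0.05. ARRB1 (edgeR adjusted p = 0.013) lost its call without latTII replicate 1 (0.095), midTII replicate 1 (0.065) or midTII replicate 2 (0.1). TYR (KY21.Chr12.1050), the tyrosinase of melanin synthesis, was higher in both latTII libraries, at 10.3 and 12.0 TPM, than at midTII, at 1.83 and 6.77 TPM, without passing (edgeR adjusted p = 0.17).

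The remaining lists hold genes of general cell functions, cilia and immunity. Of 37 cytosolic ribosome genes none passed, although 1 in each direction had an unadjusted p under 0.05, DESeq2 called 0 and the median log2 change was 0.20. Of 52 motile cilium genes none passed, with 0 higher and 5 lower at an unadjusted p under 0.05 and 0 and 2 in DESeq2. In ribosome biogenesis 2 of 61 rose and 1 fell, in the mitochondrial ribosome 1 of 49 rose and 1 fell, in the secretory pathway 1 of 41 rose and 3 fell, and of 25 immune and complement genes 1 rose. The solute carriers gave 1 fall among 47, the ADP/ATP carrier match SLC25A4 (KY21.Chr5.818), with 969 and 993 TPM at latTII and 1758 and 1814 TPM at midTII (log2 change -0.82 ± 0.11, SE; edgeR adjusted p = 0.0006). Oxidative phosphorylation had 2 falls in 37, UQCRB and UQCRC2, subunits of complex III, and the proteasome 1 in 26. The call of UQCRB (edgeR adjusted p = 0.037) was lost without latTII replicate 2 (0.24), midTII replicate 1 (0.095) or midTII replicate 2 (0.18). Of 50 spliceosome genes 6 fell and 0 rose, with none higher at an unadjusted p under 0.05 or in DESeq2. These included SNRPC, of the U1 particle, with 99.2 and 94.9 TPM at latTII and 179 and 208 TPM at midTII (log2 change -0.94 ± 0.18, SE; edgeR adjusted p = 0.0052). The spliceosome falls numbered 6 and 1 without latTII replicates 1 and 2 in turn, and 3 and 2 without midTII replicates 1 and 2.

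To compare latTII with its neighbours, it was tested against the mean of midTII and larva on the log2 scale. A large gap to a single neighbour can be enough to pass. HMCN1 passed as higher (edgeR adjusted p = 0.0087), with a mean TPM of 3.55 at midTII, 82.6 at latTII and 338 in the larva. In this contrast 357 genes passed (2.44%), 252 higher (1.72%) and 105 lower (0.718%). Both latTII libraries lay beyond all 4 midTII and larva libraries in only 160 and 70 of them. The higher genes numbered 58 without latTII replicate 2, 385 without latTII replicate 1, 126 without midTII replicate 1 and 131 without larva replicate 2, and the lower genes 23, 234, 54 and 59. Among genes with a symbol and at least 10 TPM whose latTII libraries lay above all 4 midTII and larva libraries, ACHE had the largest excess, 3.10 on the log2 scale (edgeR adjusted p = 0.003), its mean TPM being 1.68 at midTII, 21.4 at latTII and 3.76 in the larva. INF2, ALPL, the NOTCH2 match KY21.Chr10.945 and TFF2 followed, with excesses of 2.08, 1.82, 1.76 and 1.59 (edgeR adjusted p = 0.0028, 0.0013, 0.044 and 0.00025). Under the same limits, with the latTII libraries below all 4, the lowest were GCLC, GPD1, UPP2, POFUT1 (KY21.Chr1.402), a protein O-fucosyltransferase match, and MUC6. Relative to the mean of both neighbours they were at -2.15, -2.13, -2.02, -1.76 and -1.67 (edgeR adjusted p = 0.027, 0.048, 0.0029, 0.002 and 0.0011). Against midTII alone POFUT1 did not pass (0.19). MUC6 had a mean TPM of 334 at midTII, 151 at latTII and 691 in the larva. Of the 38 matrix genes 9 were higher in this contrast, but 1 without latTII replicate 2.

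**Figure D4:**
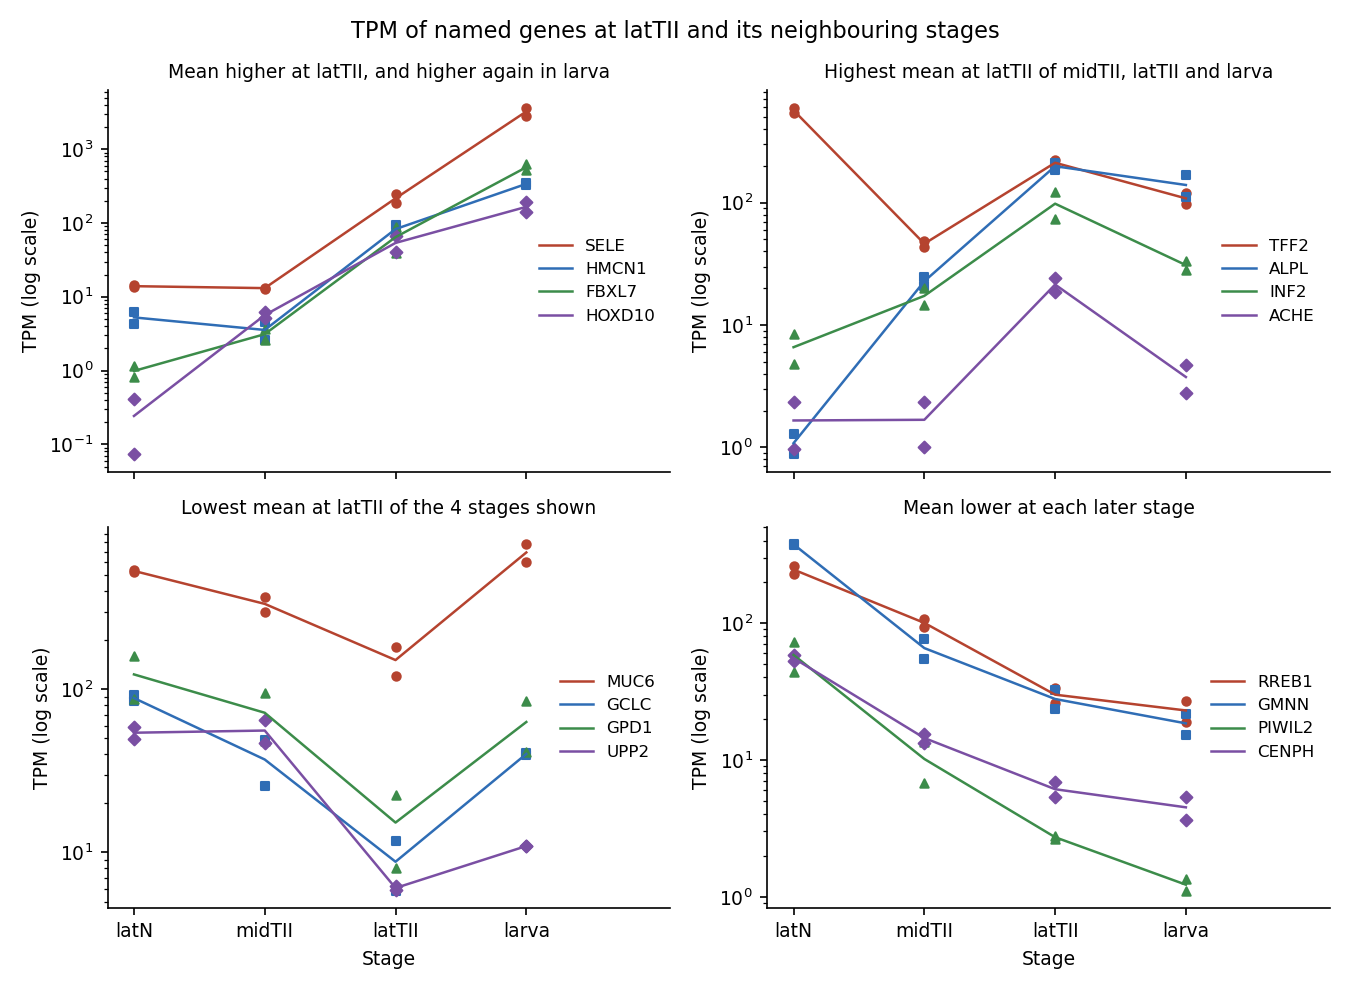
TPM (log axes) of 16 named genes at latN, midTII, latTII and larva, in time order; points are replicates and lines join stage means. SELE, HMCN1, FBXL7 and HOXD10 have a higher mean in the larva than at latTII, TFF2, ALPL, INF2 and ACHE a lower one, MUC6, GCLC, GPD1 and UPP2 are at their lowest mean at latTII, and RREB1, GMNN, PIWIL2 and CENPH have a lower mean at each stage shown.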

How the data were processed

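RNA was measured in whole wild-type *Ciona robusta* embryos at 8 stages with 2 replicates each. The authors trimmed the reads, quantified them against KY21 transcripts with Salmon and deposited estimated counts per gene, not normalized, which were rounded here. They also deposited TPM, scaled to the same total in every library, which were used as given. DESeq2-normalized values were not used. The 36 ENSCING rows, 3.4 to 5.0% of the counts of the 4 libraries, were left out of tests, and 0 of the 20 with enough counts changed when they were included.

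The test was that of edgeR 4.0.16, run in R 4.3.3 (TMM scaling, filterByExpr by stage, robust quasi-likelihood test, 1 term per stage over all 16 libraries, Benjamini-Hochberg adjustment over 14623 genes). Standard errors were derived by dividing each fitted log2 change by the root of its F value. With 2 libraries a stage, the estimate of the spread is shared across stages. Replicates are biological, but p-values measure only the spread between these libraries. In simulated data for latTII against midTII (14296 genes), 28.5% of 200 genes changed 2-fold and 66% of 200 changed 4-fold were recovered, and 8 unchanged genes were called. Alternatives were DESeq2 1.42.0, limma 3.58.1 on log2(TPM+1) or log2(TPM+0.1), RLE factors, library totals, no filter, a stricter filter (50 counts or more in 2 libraries), a log2 threshold of 1, only the 4 libraries, a replicate block and each library left out in turn.

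Symbols came from tables of the paper held in part (1999, 1518 and 1999 entries), so no enrichment was computed. The genes named are, among called genes that have a symbol, 10 TPM or more and replicates that do not overlap, the 15 largest rises and falls and up to 4 members per list, and also the 3 largest rises and falls without a symbol, the 5 largest changes in each direction against both neighbouring stages, the 5 most abundant genes and a few genes that the study discusses or that mark cell types. Other members of the list counts, and TFF1, were named after their values were seen. Comparison, lists and rule were chosen with earlier results of these data known. No sequence is printed, because no sequence table or genome was used here. A few results on single genes are not reported here.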

Additional observations from a re-analysis of the deposited data

How the results depend on the processing

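The 1334 genes changed between latTII and midTII became 2186 with DESeq2, 2207 with limma on log2(TPM+1), 825 with a log2 change of at least 1, and 571 to 1091 with single libraries left out. With RLE factors they were 1347, with library totals 1395, without a filter 1272, with at least 50 counts in 2 libraries 1406, with limma on log2(TPM+0.1) 1560 and in the 4 libraries alone 1143, of which 740 were higher and 403 lower. DESeq2 called 1326 of the 1334, the 4 libraries alone 791, and the fit without midTII replicate 2 called 547. The 252 genes higher at latTII than at midTII and larva together were 602 with DESeq2 and 58 to 385 with single libraries left out. Genes detected at latTII only numbered 691 to 840 under other limits, against 780. The cause of these differences was not tested.

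Of 106 named genes tested 88 passed, 39 of them in every one of 15 alternatives that gave a p. Some genes that did not pass changed direction with single libraries left out: their log2 changes ranged from -0.060 to 0.53 for ACTC1, from -0.85 to 0.14 for YBX1, from -0.62 to 0.19 for STMN2 (0.01 without midTII replicate 1), from -0.59 to 0.10 for LOC108704161 (0.07 without midTII replicate 1), and from -0.23 to 0.72 for KY21.Chr9.560 (-0.21 without midTII replicate 2).

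The labels do not say that equal replicate numbers mark a shared fertilization. Deviations of same-numbered libraries from their stage means correlated at 0.014 between latTII and midTII over genes, so the numbers were not taken as pairs. Between other stages the correlation ranged from -0.19 (midTII and larva) to 0.76 (fertE and cell16), and it was 0.19 between latTII and larva. With a replicate block the changed genes numbered 1406 over all libraries and 1217 in the 4 libraries alone, and the genes higher at latTII than at midTII and larva together 278. With 2 libraries a stage, the simulated recovery shows that many 2-fold changes are missed, so a gene that did not pass cannot be read as unchanged.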

Other observations

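Several genes of fucose transfer stood among the falls, and a list of them was put together only after their values had been seen, so it has no test of its own. FUT6 (KY21.Chr1.1862) and the next identifier, FUT7 (KY21.Chr1.1863), both matches of fucosyltransferases, were lower. FUT7 had 53.3 and 54.7 TPM at latTII and 144 and 128 TPM at midTII (log2 change -1.29 ± 0.30, SE; edgeR adjusted p = 0.018), a call lost on leaving out any single library (0.056 to 0.11). POFUT2 (KY21.Chr1.487), the match of an enzyme that adds fucose to thrombospondin repeats, had 39.8 and 41.5 TPM at latTII and 104 and 113 TPM at midTII (log2 change -1.37 ± 0.19, SE; edgeR adjusted p = 0.00063), after a mean of 1525 TPM at latN, and it passed with any single library left out (0.0061 to 0.0084).

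A match of GFUS (KY21.Chr1.1534), which makes GDP-fucose, had 377 and 810 TPM at latTII and 1833 and 1684 TPM at midTII (log2 change -1.52 ± 0.39, SE; edgeR adjusted p = 0.03), and the latTII replicates differed widely. This call was lost without latTII replicate 1 (0.15), midTII replicate 1 (0.11) or midTII replicate 2 (0.072). The other GFUS match (KY21.Chr10.315) had 196 and 184 TPM at latTII and 205 and 209 TPM at midTII and did not pass (0.86). GMDS, FUK, FUT5, FUT11, POFUT1 and the 3 FUT8 matches did not pass the test (edgeR adjusted p from 0.057 to 0.98).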
